A study of Homo sapiens with 12 samples.

Results

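Plasminogen activators and serpins were described through 8 genes taken by name: the activators PLAU and PLAT, the receptor PLAUR, and the serpins SERPINE2, SERPINB2, SERPINB5, SERPINB7 and SERPINB8. All 8 were found among the 22506 genes of the raw count table. Of these 8, 7 were among the 14008 genes with enough reads to be tested, and SERPINB5 was not. RNA sequencing covered 12 libraries from the human lines H1703, H1299, CHAGO and CALU, which the series title places among lung squamous cell carcinoma lines, with 1 library for each combination of line and state. The first state was adherent parental cells, the second tumor-initiating cells (TICs) derived from that line, and the third TICs with knockdown of PRKCI, the gene of protein kinase C iota. The labels name no other allele or agent, and neither the method of knockdown nor the culture of the TICs is given in the sources used here. The knockdown in parental cells, named in the design, was not analysed here. The 4 lines are the replicates of each state (n = 4), and nothing says that the 3 libraries of a line came from separate cultures, so each p-value measures only the spread between these libraries.

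Plasminogen is a circulating protein that is cut into plasmin, a broad protease that breaks down fibrin and matrix proteins and activates other proteases. The cut is made by urokinase, encoded by PLAU, and by tissue plasminogen activator, encoded by PLAT. Urokinase is held at the cell surface by its receptor, encoded by PLAUR. Serpins are inhibitors that trap a target protease in a covalent complex. SERPINE2 (protease nexin-1) and SERPINB2 (plasminogen activator inhibitor type 2) both inhibit urokinase, whereas SERPINB5 (maspin) belongs to the serpin family without acting as a classical inhibitor. In lung and other carcinomas the system is known for its part in matrix breakdown and invasion.

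The depth followed the line, with 21.2 to 36.1 M (mega) reads per library in H1703 and H1299 but 63.8 to 91.8 M reads per library in CHAGO and CALU. Levels are given as counts-per-million (CPM) after TMM scaling, and the level that 3 reads would give, taken as the limit of detection, was between 0.0346 and 0.135 CPM. PRKCI fell by 3.15 on the log2 scale between TICs and knockdown TICs (standard error 0.37, edgeR adjusted p = 0.0489), lower in 4 of 4 lines. This call was lost when any of the 4 lines was left out. Markers of 5 keratin and junction genes of epithelial cells summed to 1452 to 1945 CPM in CHAGO, 132 to 354 CPM in CALU, 23.1 to 28.1 CPM in H1299 and 0.193 to 1.64 CPM in H1703. Squamous markers (TP63, KRT5, KRT6A, KRT14 and DSG3) reached 123 CPM in CHAGO and 45.4 CPM in CALU, and at most 0.225 CPM in H1703 and 0.132 CPM in H1299, so the squamous label was not borne by these markers in the latter 2 lines. The 5 leukocyte markers summed to 1.20 to 338 CPM in parental cells, 97.1 to 647 CPM in TICs and 149 to 809 CPM in knockdown TICs, with a higher sum in TICs than in parental cells of each line. Nearly all of this was CD68, a lysosomal membrane protein (up to 809 CPM), except in CHAGO parental cells (sum 1.20 CPM, CD68 0.0900 CPM). CD14 was at most 4.06 CPM, PTPRC 0.704 CPM and LYZ 0.129 CPM, and CD3E had no read in any library. The part of these markers in the results was not tested. Levels are from whole cultures, where fewer cells of a type and less RNA per cell cannot be told apart.

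PLAU, the gene of urokinase, differed far more between lines than between states. In H1299 it was at 149 CPM in parental cells, 110.4 CPM in TICs and 183 CPM in knockdown TICs. In CALU it was at 48.8, 57.1 and 107 CPM in the same order. H1703 gave 38 reads (1.38 CPM), 17 reads (0.765 CPM) and 0 reads. CHAGO gave 0 reads in parental cells, 0 reads in TICs and 24 reads (0.317 CPM) in knockdown TICs. Every H1299 and CALU library was therefore far above every H1703 and CHAGO library, and the 3 states overlapped across their whole range. Between TICs and parental cells the log2 fold change was −0.40 (standard error 1.01, edgeR adjusted p = 0.920). Between knockdown TICs and TICs it was 1.05 (standard error 1.07, edgeR adjusted p = 0.980), with PLAU 1.66-fold higher in H1299, 1.88-fold higher in CALU, at least 8.64-fold higher in CHAGO and at least 6.61-fold lower in H1703. Within H1703 and H1299 alone this value was −0.33, so the direction of the difference was not the same in the pairs of lines.

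PLAT, the gene of tissue plasminogen activator, stood apart in CALU. Its level there was 28.3 CPM in parental cells, 42.2 CPM in TICs and 40.4 CPM in knockdown TICs. H1299 had 5.17, 1.71 and 3.80 CPM. H1703 had 127 reads (4.62 CPM), 8 reads (0.360 CPM) and 89 reads (3.44 CPM), and CHAGO had 69 reads (1.04 CPM), 48 reads (0.587 CPM) and 4 reads (0.0529 CPM). The lowest CALU library was above every library of the other 3 lines, while the states overlapped. PLAT was lower in the TIC library than in the parental library of 3 lines, by 12.8-fold in H1703, 3.02-fold in H1299 and 1.76-fold in CHAGO, and 1.49-fold higher in CALU. The log2 fold change over the 4 lines was −1.11 (standard error 0.86, edgeR adjusted p = 0.676), and it was 0.20 without the line as a block. After knockdown the H1703 level was 9.54-fold higher than in TICs and the CHAGO level 11.1-fold lower, with a log2 fold change of 0.37 (standard error 0.90) over the lines.

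PLAUR, the urokinase receptor, had nearly the same level in the TICs of all 4 lines. Parental cells were at 5.24 CPM in H1703, 47.2 CPM in H1299, 1.61 CPM in CHAGO and 14.5 CPM in CALU. TICs were at 34.7, 41.4, 34.8 and 39.1 CPM in the same lines. Knockdown TICs were at 18.5, 24.9, 21.1 and 61.3 CPM. The 4 TIC libraries lay above 3 of the 4 parental libraries and below the H1299 parental library, so the groups overlapped through that library. The group mean was 17.1 ± 20.8 CPM in parental cells, 37.5 ± 3.31 CPM in TICs and 31.5 ± 20.1 CPM in knockdown TICs (SD, n = 4). TICs had 6.62-fold more PLAUR than parental cells in H1703, 21.7-fold more in CHAGO and 2.70-fold more in CALU, and 1.14-fold less in H1299. Over the 4 lines the log2 fold change was 1.87 (standard error 0.75, edgeR adjusted p = 0.362). Its adjusted p ranged from 0.066 with DESeq2 to 1 over the alternatives, and the value was 2.83 without H1299 and 1.20 without CHAGO. Between knockdown TICs and TICs PLAUR was lower in 3 lines by 1.65 to 1.88-fold and 1.57-fold higher in CALU (log2 fold change −0.43, standard error 0.67, edgeR adjusted p = 0.987).

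**Figure D1:**
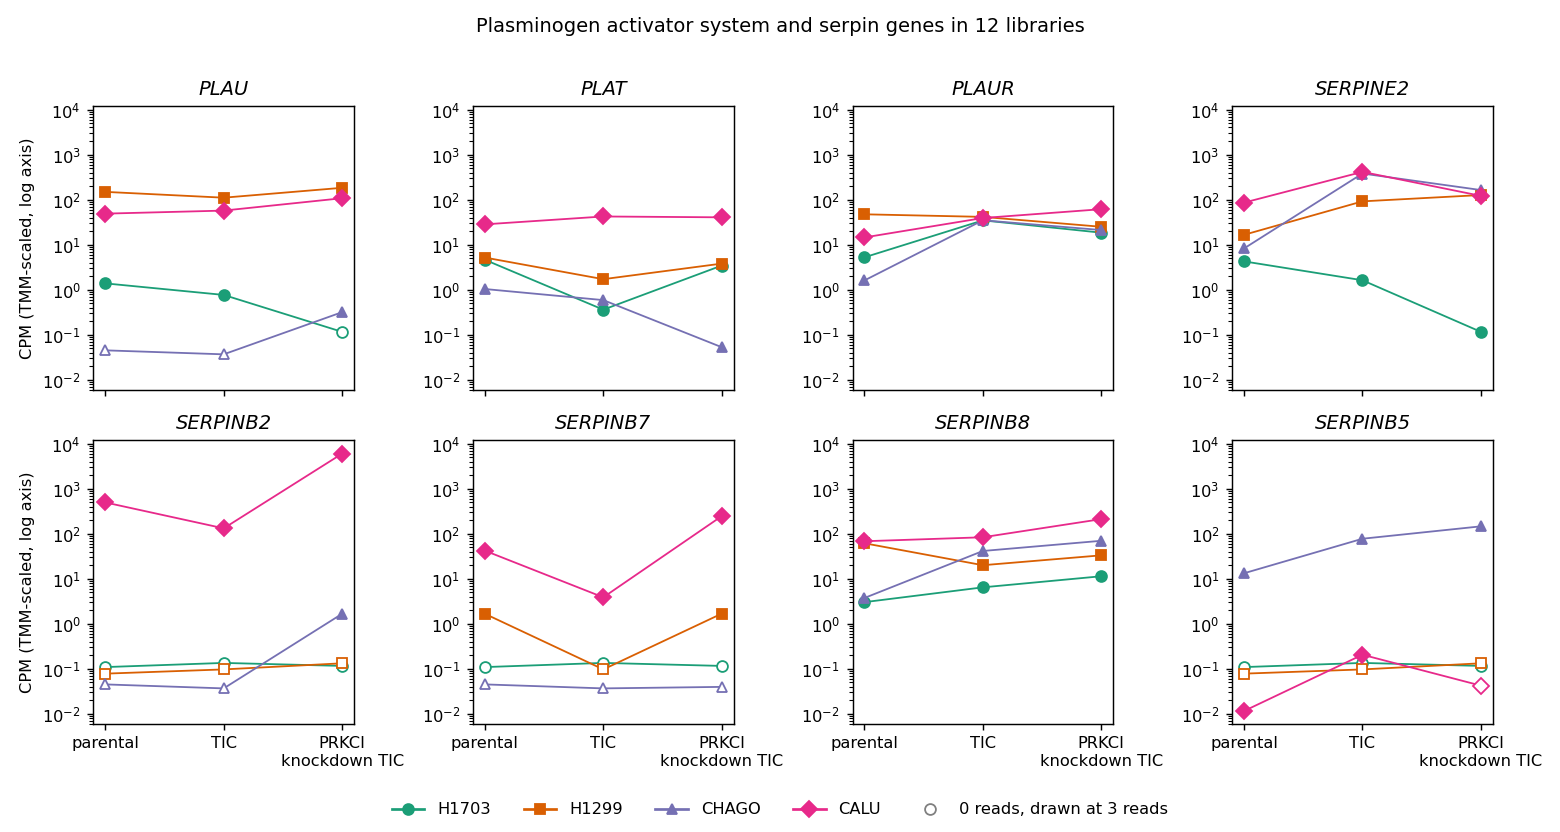
Level of each of the 8 genes in CPM on a log axis against the state, with 1 point per library and a line joining the 3 libraries of a cell line. Open points are libraries with 0 reads, drawn at the level of 3 reads. PLAUR in TICs sits between 34.7 and 41.4 CPM in all 4 lines, and SERPINB2 in CALU reaches 5996 CPM in knockdown TICs.

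SERPINE2, a secreted inhibitor of urokinase, tissue plasminogen activator and thrombin, was highest in the TIC libraries of CHAGO and CALU. Parental cells were at 4.25 CPM in H1703, 16.5 CPM in H1299, 8.24 CPM in CHAGO and 85.8 CPM in CALU. TICs were at 1.62, 91.5, 379.9 and 413 CPM. Knockdown TICs were at 0.116 CPM (3 reads), 126, 163 and 121 CPM. The TIC libraries of H1299, CHAGO and CALU were above every parental library, and H1703 was low in every state. TICs had 46.1-fold more SERPINE2 than parental cells in CHAGO, 5.53-fold more in H1299, 4.82-fold more in CALU and 2.63-fold less in H1703. The log2 fold change was 1.77 (standard error 1.29, edgeR adjusted p = 0.645), and it was 3.21 without H1703, with an edgeR adjusted p of 0.375, and 0.76 without CHAGO. Knockdown TICs had 2.33-fold less than TICs in CHAGO, 3.41-fold less in CALU and 1.38-fold more in H1299. In H1703 the ratio of knockdown TICs to TICs was 0.071, with a 95% counting interval of 0.014 to 0.226, from 3 and 36 reads. The log2 fold change of this comparison was −0.91 (standard error 1.06, edgeR adjusted p = 0.980). Fibroblast markers, led by COL1A1, summed to 618 CPM in CALU parental cells, 1465 CPM in CALU TICs and 389 CPM in CALU knockdown TICs, and to at most 38.1 CPM in any other line. Their part in the SERPINE2 levels of CALU was not tested.

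Clade B serpins are mostly intracellular, and SERPINB5, SERPINB7, SERPINB2 and SERPINB8 lie in this order in a cluster on chromosome 18 of the RefSeq annotation. Between SERPINB5 and SERPINB7 lie SERPINB12, SERPINB13, SERPINB4, SERPINB3 and SERPINB11, and SERPINB10 lies between SERPINB2 and SERPINB8. Promoter windows of 250 bases before and 50 bases after the gene start were taken from RefSeq (assembly GRCh38.p14, not the build of the counts). They were found for 7 of the 8 genes, in 11 windows. The motif TGANTCA, which AP-1 transcription factors are known to bind, was searched on both strands because PLAUR and SERPINB2 are textbook AP-1 targets. It occurred in 6 of the 11 windows, beside 7.71% of all 35116 windows. These windows belonged to 5 of the 7 genes, and the share of all genes was not computed. SERPINB7 held the motif in the windows of more than 1 start. PLAUR and SERPINB2 had led to the choice of the motif, so these counts are no evidence of enrichment. The match is a description of letters and not a measured binding site. The 250 bases before the start of SERPINB7, SERPINB2, SERPINB8 and PLAUR are shown as the tested members whose windows held the motif. Capitals mark each TGANTCA match, 5′ to 3′ on the strand of the gene. The positions are chr18:63777531-63777780 (plus strand) for the start of SERPINB7 nearest its neighbour SERPINB2, chr18:63887455-63887704 (plus strand) for SERPINB2, chr18:63969831-63970080 (plus strand) for SERPINB8 and chr19:43670170-43670419 (minus strand) for PLAUR.
SERPINB7: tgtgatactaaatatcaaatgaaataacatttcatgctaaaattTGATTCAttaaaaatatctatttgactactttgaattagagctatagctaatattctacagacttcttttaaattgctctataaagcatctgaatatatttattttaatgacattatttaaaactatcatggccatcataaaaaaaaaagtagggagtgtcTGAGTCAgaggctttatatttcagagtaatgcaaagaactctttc
SERPINB2: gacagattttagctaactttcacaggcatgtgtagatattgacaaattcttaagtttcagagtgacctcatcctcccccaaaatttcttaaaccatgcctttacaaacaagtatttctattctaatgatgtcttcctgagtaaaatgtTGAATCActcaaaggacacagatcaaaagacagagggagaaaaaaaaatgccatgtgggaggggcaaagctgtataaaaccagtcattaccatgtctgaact
SERPINB8: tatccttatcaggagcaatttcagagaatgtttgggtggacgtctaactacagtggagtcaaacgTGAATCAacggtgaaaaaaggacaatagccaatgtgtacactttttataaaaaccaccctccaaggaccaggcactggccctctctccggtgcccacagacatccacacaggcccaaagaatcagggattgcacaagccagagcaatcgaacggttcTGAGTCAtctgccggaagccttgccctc
PLAUR: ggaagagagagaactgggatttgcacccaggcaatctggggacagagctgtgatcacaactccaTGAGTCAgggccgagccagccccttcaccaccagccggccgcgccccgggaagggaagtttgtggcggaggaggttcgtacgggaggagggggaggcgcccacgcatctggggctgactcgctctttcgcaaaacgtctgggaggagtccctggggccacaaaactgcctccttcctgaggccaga
SERPINB7 and SERPINB8 each carried 2 matches in the stretch shown, SERPINB7 at 206 and 45 bases before its start and SERPINB8 at 185 and 28 bases. SERPINB2 carried 1 match at 102 bases. TATAAA, the letters of a TATA box, was in 11.5% of all windows on either strand, and occurred at 30 bases before the start of SERPINB2, at 127 and, on the other strand, 33 bases before that of SERPINB7, and at 140 and, on the other strand, 142 bases before that of SERPINB8. PLAUR carried 1 match at 186 bases and SERPINB5 1 match at 146 bases. No window of PLAU or SERPINE2 held the motif, and sites farther from a start were not searched. The sequence GACCACCCA, known as a site of the Hedgehog effectors GLI, was in 0.236% of all windows and in none of these 11.

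SERPINB2 was the member with the widest range, and nearly all of its reads came from CALU. H1703 and H1299 had 0 reads in every library, and CHAGO had 0 reads in parental cells and in TICs. CALU had 42820 reads (494 CPM) in parental cells, 10887 reads (131 CPM) in TICs and 425475 reads (5996 CPM) in knockdown TICs. In CHAGO knockdown TICs 126 reads (1.67 CPM) were counted. The CALU knockdown library was thus the highest of all, and the only library of CHAGO with reads was also that of knockdown TICs. In the CALU knockdown library SERPINB2 took 0.529% of all reads (95% Wilson interval 0.528% to 0.531%) and was the gene of rank 9 by reads. Squamous markers in CALU summed to 5.03 CPM in parental cells, 45.4 CPM in TICs and 2.75 CPM in knockdown TICs, and so were lowest where SERPINB2 was highest. In CHAGO the order was the other way, with the highest sum (123 CPM) in knockdown TICs, its only library with SERPINB2 reads. The part of these markers in the SERPINB2 levels was not tested.

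SERPINB2 in CALU was 3.76-fold lower in TICs than in parental cells, 45.6-fold higher in knockdown TICs than in TICs, and 12.1-fold higher in knockdown TICs than in parental cells. In CHAGO the knockdown TICs were at least 45.4-fold above the TICs and at least 37.0-fold above the parental cells. Over the lines the log2 fold change of knockdown TICs against TICs was 6.18 (standard error 0.95, rank 7 of 14008 by p), but the edgeR adjusted p was 0.980, and it ranged from 0.685 to 1 over the alternatives. Without the CALU knockdown library the fitted value was 9.55 and rested on CHAGO alone, where the TICs had 0 reads, so its size depends on the prior count. Between knockdown TICs and parental cells the log2 fold change was 4.45 (standard error 0.85, edgeR adjusted p = 0.222), and it was 7.71 without the CALU knockdown library. Between TICs and parental cells it was −1.73 (standard error 0.86, edgeR adjusted p = 0.514).

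SERPINB7 (megsin) was lowest in TICs in the 2 lines where it was read. CALU had 3634 reads (42.0 CPM) in parental cells, 320 reads (3.86 CPM) in TICs and 17424 reads (246 CPM) in knockdown TICs. H1299 had 64 reads (1.66 CPM), 0 reads and 38 reads (1.68 CPM). H1703 and CHAGO had 0 reads throughout. In each of the lines with reads the TIC library was the lowest of its line, and the CALU libraries were above those of H1299 in every state. TICs had 10.9-fold less than parental cells in CALU and at least 17.2-fold less in H1299. Knockdown TICs had 63.6-fold more than TICs in CALU and at least 17.3-fold more in H1299, where the knockdown and parental levels were within 1.01-fold of each other. Fitted log2 fold changes were −4.70 for TICs against parental cells (standard error 1.07, edgeR adjusted p = 0.227) and 5.82 for knockdown TICs against TICs (standard error 1.08, rank 10 by p, edgeR adjusted p = 0.980). The TIC libraries are shared by both comparisons. Without the CALU knockdown library the second value was 4.83, no longer at an unadjusted p under 0.05. Within CALU, the difference of SERPINB7 between knockdown TICs and TICs ranked 38 from the highest among 14008 genes, and that of SERPINB2 ranked 56.

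SERPINB8, an inhibitor of furin-like proteases, was the only one of the 8 members whose level after knockdown was above that of TICs in all 4 lines. Parental cells were at 3.02 CPM in H1703, 61.3 CPM in H1299, 3.74 CPM in CHAGO and 67.9 CPM in CALU. TICs were at 6.44, 20.0, 41.3 and 83.3 CPM, and knockdown TICs at 11.3, 33.1, 69.6 and 211 CPM. The ratio of knockdown TICs to TICs was 2.53 in CALU, 1.76 in H1703, 1.68 in CHAGO and 1.66 in H1299. These ratios were close to each other while the levels of the lines lay far apart, so the groups overlapped. Their log2 fold change was 0.92 (standard error 0.67, edgeR adjusted p = 0.980), and 7.23% of all tested genes were also higher in 4 of 4 lines. Against parental cells, TICs had 11.1-fold more SERPINB8 in CHAGO, 2.13-fold more in H1703, 1.23-fold more in CALU and 3.07-fold less in H1299 (log2 fold change 0.46, standard error 0.74, edgeR adjusted p = 0.859). That value was −0.23 without CHAGO.

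SERPINB5 was read almost only in CHAGO. It had 881 reads (13.2 CPM) in CHAGO parental cells, 6314 reads (77.2 CPM) in TICs and 11019 reads (146 CPM) in knockdown TICs. CALU had 1, 17 and 0 reads in the same order, and H1703 and H1299 had 0 reads in every library. In CHAGO, TICs had 5.84-fold more than parental cells and knockdown TICs 1.89-fold more than TICs, differences between single libraries with no replicate. The squamous markers of CHAGO moved with it, with a sum of 8.55 CPM in parental cells, 64.3 CPM in TICs and 123 CPM in knockdown TICs. Their part in the SERPINB5 level was not tested.

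**Figure D2:**
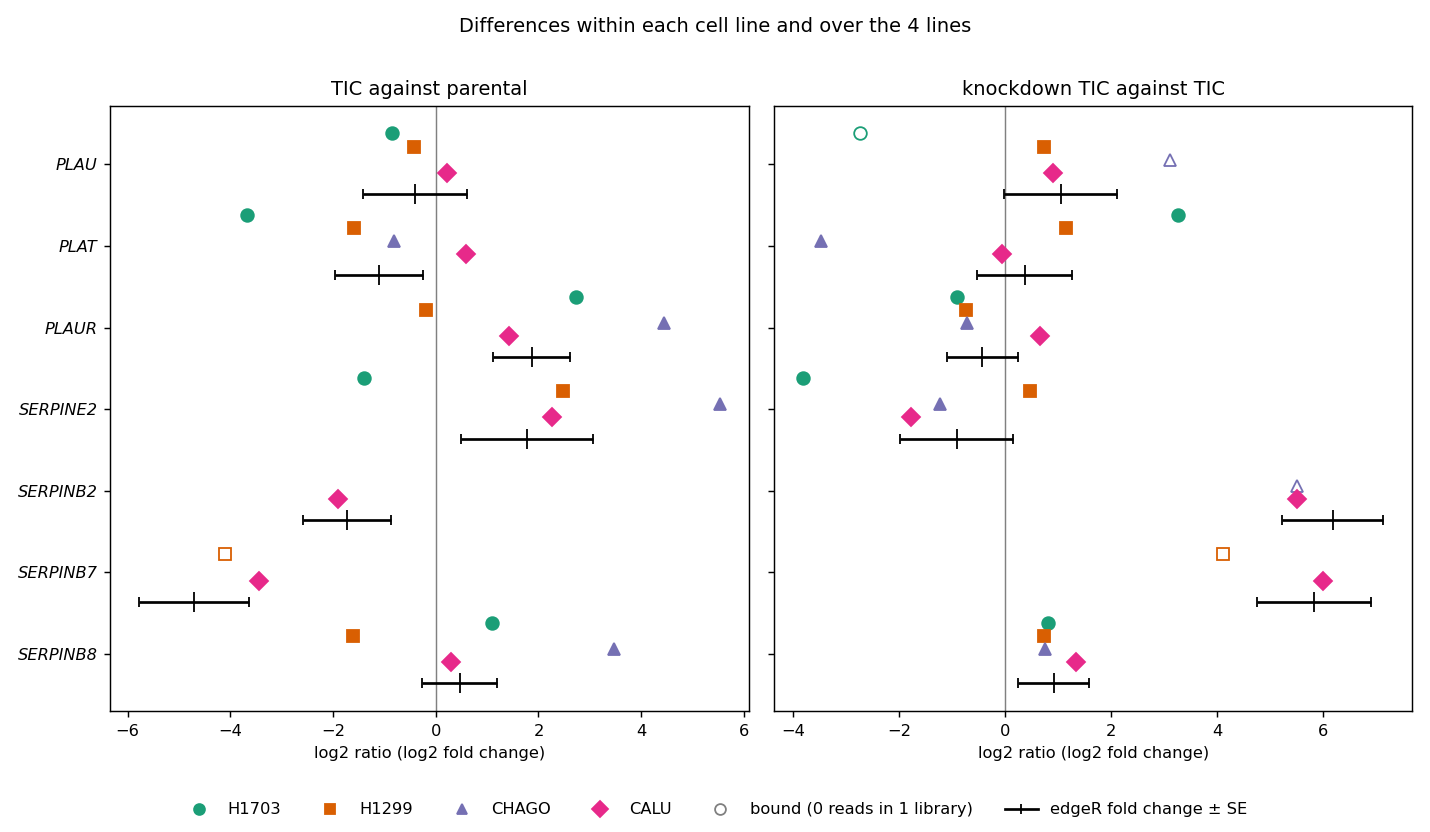
Log2 ratio of each tested member within each cell line (points) and the edgeR log2 fold change over the 4 lines with its standard error (black bars), for TICs against parental cells on the left and knockdown TICs against TICs on the right. Open points are bounds, where a library had 0 reads, and the SERPINE2 point of H1703 on the right rests on 3 reads. SERPINB8 is to the right of 0 in all 4 lines on the right, at ratios of 1.66 to 2.53.

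No member passed an adjusted p of 0.05 in any of the 3 comparisons between states. For TICs against parental cells edgeR called 0 of 7 members, where 0.0286% of all tested genes were called. At an unadjusted p under 0.05 there were 2 members, PLAUR higher and SERPINB7 lower, beside 11.8% of all tested genes. For knockdown TICs against TICs edgeR called 0 of 7, where 0.0143% of all tested genes were called, and SERPINB2 and SERPINB7 had an unadjusted p under 0.05, both higher, beside 4.28% of all tested genes. For knockdown TICs against parental cells 0 of 7 were called, where 0.0357% of all tested genes were called, and SERPINB2 alone had an unadjusted p under 0.05, beside 10.7%. DESeq2, limma voom and limma on the authors' mode-normalized values each called 0 members in the 3 comparisons. In the order of the comparisons above, DESeq2 called 3.66%, 0.0785% and 2.86% of all tested genes, voom 0.0714%, 0.00714% and 0.0428%, and the mode-normalized values 0.307%, 0.00714% and 0.143%. SERPINB2 and SERPINB7 were kept by the filter on low counts through the few libraries where they were high, so these counts describe the members and carry no further weight.

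The cell line took most of the variation of the members other than PLAUR, as it did for the median tested gene (63.5%). The test of the line set the spread between lines against the spread left after state and line, since the 3 libraries of a line are in 3 states. Levels differed between lines for 6 of the 7 tested members at an edgeR adjusted p under 0.05, where 45.4% of all tested genes were called. SERPINB2 and SERPINB7 were 2 of these 6, but they entered the test mainly through the CALU libraries where they were high, so their calls are no support for a difference between lines. For the others the edgeR adjusted p was 0.00139 for PLAU, 0.00391 for PLAT, 0.0167 for SERPINB8 and 0.0484 for SERPINE2. Outside H1299 and CALU, PLAU had at most 38 reads in any library. It entered the test mainly through those lines, so its call is no support for a difference between lines either. PLAUR was the member not called (edgeR adjusted p = 0.213). Without CALU, PLAU and SERPINB5 were called, 2 of 6, where 34.9% of all tested genes were called. SERPINB5 had 0 reads in every H1703 and H1299 library and entered this fit only through CHAGO, and PLAU entered it mainly through H1299. Neither call is therefore support for a difference between lines. The call of SERPINE2 was lost with DESeq2 size factors, with library totals and with no filter on low counts. On the log2 CPM scale, the line held 91.7% of the sum of squares of PLAU, and the state 0.0462%. The line part was 80.5% for PLAT, 72.6% for SERPINE2 and 64.0% for SERPINB8. Of tested genes, 92.2% had a smaller line part than PLAU, 75.3% than PLAT, 63.4% than SERPINE2 and 50.7% than SERPINB8. For PLAUR the line held 27.4% and the state 39.9%, beside medians of 63.5% and 8.40% over all tested genes. Only 12.4% of tested genes had a smaller line part than PLAUR.

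**Figure D3:**
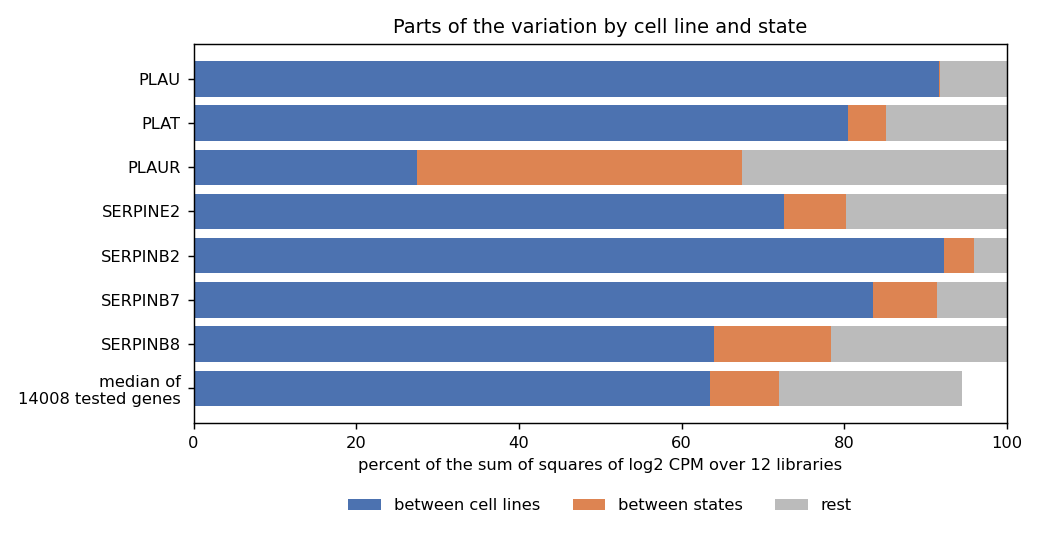
Percent of the sum of squares of log2 CPM over the 12 libraries that lies between cell lines, between states and in the rest, for each tested member and as the median of all tested genes (medians of the 3 parts need not add to 100%). PLAU is mostly line, at 91.7%, and PLAUR is the member with the smallest line part, at 27.4%.

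Within lines, PLAUR and SERPINB8 had the most alike levels among the member pairs. After the mean of each line was removed, their log2 CPM correlated at 0.848 over the 12 libraries, against 0.440 for SERPINB2 and SERPINB7 and 0.072 for the ligand PLAU and its receptor PLAUR. As measured, with the line means kept, SERPINB2 and SERPINB7 correlated at 0.837. SERPINB2 had reads in only 4 of the 12 libraries and SERPINB7 in 5. The 12 libraries share 4 lines and 2 levels of depth, and the values are descriptions.

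The genes most like PLAUR within lines, by Pearson's correlation over the 12 libraries, were ERRFI1 (0.947), an inhibitor of the epidermal growth factor receptor, NDEL1 (0.945) and MCL1 (0.936), a survival protein of the BCL2 family. Those most like SERPINB8 were CLDND1 (0.958), MCL1 (0.942) and TNFRSF12A (0.941), the receptor of the cytokine TWEAK. Those most like SERPINB2 were CST6 (0.973), an inhibitor of cysteine proteases, FAIM3 (0.948) and RUNDC3B (0.936). SERPINB2 had reads in only 4 of the 12 libraries, those of CALU and the CHAGO knockdown library, so its correlations within lines rest on these. For PLAU they were TMC7 (0.940), CA13 (0.923) and XRRA1 (0.921) within lines, where PLAU was at most 1.38 CPM in H1703 and 0.317 CPM in CHAGO. All these genes were picked as the highest of all tested genes, and their values are descriptions. With the line means kept, the genes most like PLAU were ZEB2 (0.981), a transcription repressor of epithelial genes, USP4 (0.969) and TRIM44 (0.967).

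The other genes of the system and of the serpin family were 68 listed genes, of which 37 were tested. In TICs against parental cells 24 were higher and 13 lower, where 48.7% of all tested genes were higher. The median log2 fold change was 0.44 beside −0.02 for all tested genes. Of the 37, edgeR called 0, where 0.0286% of all tested genes were called. At an unadjusted p under 0.05 there were 4 higher and 3 lower, beside 11.8% of all tested genes in either direction. In knockdown TICs against TICs 19 were higher and 18 lower, where 49.1% of all tested genes were higher. The median was 0.00 beside −0.01, and 1 was called, beside 0.0143% of all tested genes. Within the lists, receptors and cofactors were 5 higher and 12 lower, and inhibitors of the activators and plasmin 4 higher and 2 lower. Other clade B serpins were 2 higher and 1 lower, and other serpins 2 higher and 3 lower. The list of proteases and growth factors was 6 higher and 0 lower, but only 6 of its 18 genes were tested, and its growth factor HGF was not. Of these 6, MMP3 and MMP10 had most of their reads in the CALU knockdown library, and MMP9 had 236 reads in all. In knockdown TICs against parental cells 26 were higher and 11 lower, where 47.1% of all tested genes were higher. The median was 0.74 beside −0.05, and 1 was called, beside 0.0357%. The called gene was MMP3 in both.

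LRP1, the endocytic receptor that clears complexes of urokinase, its receptor and a serpin, was higher in TICs than in parental cells of all 4 lines. Parental cells were at 14.1 CPM in H1703, 3.09 CPM in H1299, 1.76 CPM in CHAGO and 58.8 CPM in CALU, and TICs at 38.6, 64.9, 7.57 and 395 CPM. The ratio was 20.96 in H1299, 6.71 in CALU, 4.31 in CHAGO and 2.73 in H1703, with a log2 fold change of 2.67 (standard error 0.44, edgeR adjusted p = 0.100). The levels of the 2 groups overlapped. Knockdown TICs were at 24.7, 15.98, 6.17 and 155 CPM, below the TICs of each line, with a log2 fold change of −1.16 (standard error 0.41, edgeR adjusted p = 0.980). Both comparisons share the TIC libraries, and LRP1 was named for its small p, so this lower level adds no separate support. The share of all genes lower in 4 of 4 lines after knockdown is not given. THBS1, a matrix protein that binds plasminogen and plasmin, was lower in TICs than in parental cells of all 4 lines (log2 fold change −2.99, standard error 0.58, edgeR adjusted p = 0.142). In H1703 this rests on 6 reads (0.218 CPM) in parental cells and 0 reads in TICs. ITGA3, an integrin subunit that pairs with the urokinase receptor, was higher in all 4 (1.17, edgeR adjusted p = 0.188). LRP1, THBS1 and ITGA3 were named for their small p, and the share of all genes alike in 4 of 4 lines is not given for TICs against parental cells. SERPINA1, the plasma inhibitor of neutrophil elastase, had a log2 fold change of 2.65 (edgeR adjusted p = 0.333).

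ANXA2 and S100A10, the subunits of a plasminogen and tissue plasminogen activator receptor, had log2 fold changes of 0.09 and 0.44 for TICs against parental cells and of −0.43 and −0.04 for knockdown TICs against TICs. PLG, the gene of plasminogen itself, was not tested for lack of reads.

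MMP3 (stromelysin-1), whose proenzyme plasmin can activate, was the only gene of these lists that passed the test, which it entered mainly through the CALU libraries where it had reads. In CALU it was at 1.63 CPM in parental cells, 1.002 CPM in TICs and 417 CPM in knockdown TICs, and it was at most 0.309 CPM in any other line. The log2 fold change of knockdown TICs against TICs was 8.43 (standard error 0.65, edgeR adjusted p = 0.0154) and against parental cells 7.74 (edgeR adjusted p = 0.0165). No gene at all was called in either comparison without the CALU knockdown library. MMP3 was called in neither with DESeq2, with voom, with the authors' mode-normalized values or without the line block. With the filter of 1 CPM in 4 libraries the count of called genes from these lists was 0. MMP1, an interstitial collagenase activated by plasmin and stromelysin, was at 259, 974 and 17830 CPM in the same CALU libraries (log2 fold change 2.89 for knockdown TICs against TICs, standard error 1.19, edgeR adjusted p = 0.980).

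**Figure D4:**
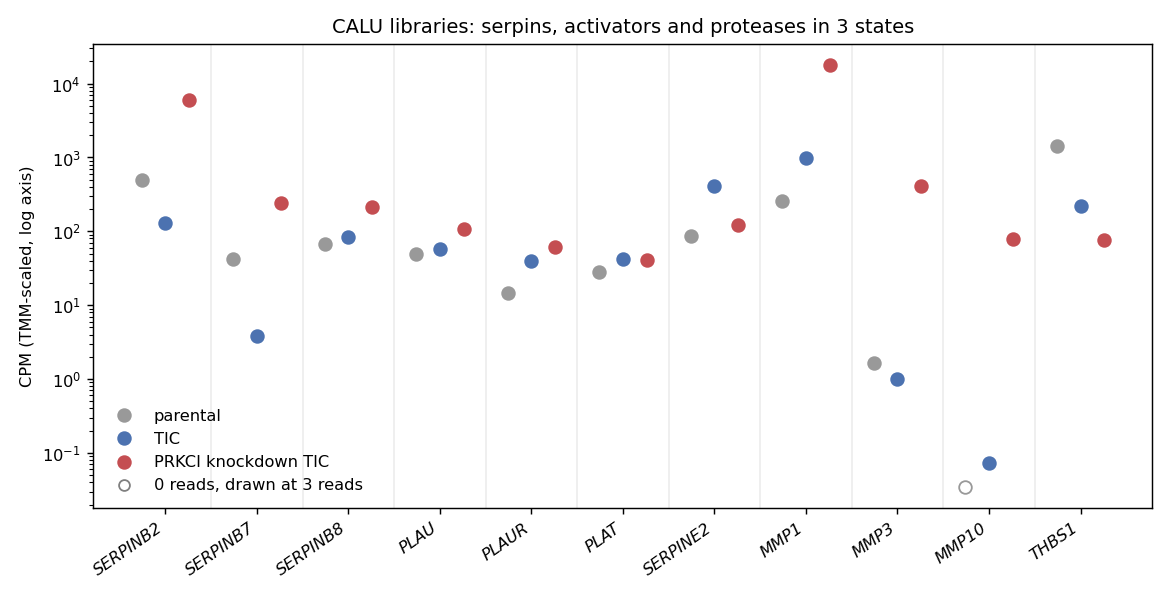
Levels in the 3 CALU libraries in CPM on a log axis, 1 point per library, for 7 of the members and 4 other genes, of which MMP10 was chosen after its values were seen. The open point is a library with 0 reads, drawn at the level of 3 reads. SERPINB2 is at 494, 131 and 5996 CPM and SERPINB7 at 42.0, 3.86 and 246 CPM in parental cells, TICs and knockdown TICs.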

How the data were processed

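Qiagen RNeasy and NuGEN products were used for RNA and libraries, per the labels' protocols. CASAVA 1.4, TopHat 1.4, HTSeq 0.5.3p3 and genome build hg19 are named in the submitters' processing notes, which give no role or order, and no strand setting of the counting is given in the sources used here. Raw counts of reads per gene were deposited by the authors for all 12 libraries. Another table deposited by the authors gives a mode-normalized score: each value was within 1 of the count multiplied by a constant of that library for 99.87% to 100% of genes. Columns were joined to samples by name, although 1 letter separates the column name of CALU knockdown TICs from the title.

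The members and the gene lists were chosen with earlier results of these data known. Counts were filtered with edgeR 4.0.16 (filterByExpr by state) under R 4.3.3, scaled with TMM and fitted with the robust quasi-likelihood model with terms for state and line on 12 libraries (6 residual degrees of freedom), two-sided, with Benjamini-Hochberg adjustment over 14008 genes at 0.05. A standard error is the absolute log2 fold change divided by the square root of F. Lines pair the libraries by the labels: after state means were removed, libraries of a line correlated at 0.553 to 0.760 and those of different lines at −0.414 to −0.0601 across genes. Correlations and sums of squares used log2 CPM with a prior count of 2. Where 1 library had 0 reads, a ratio was computed against 3 reads in that library and is a bound. Intervals and limits cover counting error only, since reads are not independent molecules. The named genes were the 8 members, ANXA2, S100A10, up to 4 listed genes of smallest p in each comparison and the 3 genes most alike in level to up to 4 members; 1 gene of this rule is not reported here. Of the 76 member and list symbols, all were in the table, 1 under an older symbol. Alternatives were other scalings and filters, no line block, each line left out, only the compared groups, DESeq2 1.42.0, limma 3.58.1 voom and limma on the mode-normalized values (log2, pseudocount 1). Fits within H1703 and H1299, within CHAGO and CALU, and without the CALU knockdown library were added after seeing the data. The scripts were tested on simulated data.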

Additional observations from a re-analysis of the deposited data

Results flagged for a closer look

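The levels of a member in the 4 libraries of a state were flagged where the highest or the lowest library stood apart from the other 3 by more than Dixon's 95% critical value for 4 samples. This was the case in 14 of 24 groups. The rate of about 1 in 20 by chance is meant for replicates, whereas the 4 libraries here are 4 different lines. The share of groups flagged over all genes was not computed, so the count is only a description. In CALU, SERPINB2 was at 494 CPM in parental cells, 131 CPM in TICs and 5996 CPM in knockdown TICs, with the next library at 0, 0 and 1.67 CPM. SERPINB7 in CALU was at 42.0, 3.86 and 246 CPM in the same order, with the next library at 1.66, 0 and 1.68 CPM. PLAT in CALU was at 28.3, 42.2 and 40.4 CPM, with the next at 5.17, 1.71 and 3.80 CPM. SERPINE2 was at 85.8 CPM in the CALU parental library, with the next at 16.5 CPM, and PLAUR at 61.3 CPM in the CALU knockdown library, with the next at 24.9 CPM. SERPINB5 in CHAGO was at 13.2, 77.2 and 146 CPM, with the next at 0.0115, 0.205 and 0 CPM. Of the 14 flagged groups, those of SERPINB5 had CHAGO as the library apart and all others had CALU.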

How the results depend on the processing

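No member was called in any comparison of states under any alternative. Of the fold changes of members under the alternatives, 101 kept their direction for TICs against parental cells and 6 reversed, 104 and 3 for knockdown TICs against TICs, and 100 and 8 for knockdown TICs against parental cells. For PLAU the reversed values were 0.15 (CHAGO and CALU only, TICs against parental cells), −0.33 (H1703 and H1299 only, knockdown TICs against TICs), and, for knockdown TICs against parental cells, −0.024 (mode-normalized values) and −1.03 (H1703 and H1299 only). For PLAT they were 0.20 with no replicate block and 0.033 with voom (TICs against parental cells), −0.99 within CHAGO and CALU (knockdown TICs against TICs), and 0.29 with no replicate block and 0.11 with voom (knockdown TICs against parental cells). For SERPINE2 they were −0.33 (TICs against parental cells) and −0.63 (knockdown TICs against parental cells), and for SERPINB8 −0.49 (TICs against parental cells), all within H1703 and H1299. With each line left out in turn, SERPINB8 in TICs against parental cells ranged from −0.23 (without CHAGO) to 1.45, PLAT in knockdown TICs against TICs from −0.28 (without H1703) to 1.09, and, in knockdown TICs against parental cells, PLAU from −0.18 (without CHAGO) to 1.56 and SERPINE2 from −0.27 (without H1299) to 2.43, with −0.061 without CHAGO.

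Of the listed genes in TICs against parental cells, where edgeR called 0, DESeq2 called 3, voom 1 and the mode-normalized values 1. Of all tested genes these settings called 3.66%, 0.0714% and 0.307%. In knockdown TICs against TICs the call of 1 gene became 0 with the filter of 1 CPM in 4 libraries, with no replicate block, DESeq2, voom, mode-normalized values and only the 2 compared groups. In knockdown TICs against parental cells it became 0 under the same settings, except for DESeq2. There DESeq2 called 4, namely ITGA3, LRP1, MMP1 and THBS1 and not MMP3, beside 2.86% of all tested genes. With each line left out in turn, the counts of both comparisons ranged from 0 to 1, and MMP3 was called only without CHAGO. Members differing between lines numbered 6, and 2 to 7 with each line left out in turn, where 31.0% to 38.3% of all tested genes were called. Each of these counts includes PLAU, and SERPINB2 and SERPINB7 or SERPINB5, whose calls are no support for a difference between lines. In calls over all genes, DESeq2 gave 512 in TICs against parental cells where edgeR gave 4. Library totals in place of TMM moved the median of all genes in knockdown TICs against parental cells to −0.11 from −0.05. The cause of these differences was not tested. In H1703 and H1299 the lower depth limits the levels that can be seen to about 0.0780 to 0.135 CPM.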

Other observations

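Genes outside the rule for naming were looked at in CALU after their values were seen. TFPI2, an inhibitor of plasmin and other proteases, was at 57.1 CPM in parental cells, 821 CPM in TICs and 12.2-fold higher again in knockdown TICs. MMP10 (stromelysin-2) had 0 reads in parental cells, 0.0724 CPM in TICs and 79.8 CPM in knockdown TICs. Among the neighbours of SERPINB2 and SERPINB7 in the chromosome 18 cluster, SERPINB13 had 224 reads (3.16 CPM) in the CALU knockdown library, while SERPINB11 and SERPINB12 had 0 reads and SERPINB10 had 1. SERPINB3 and SERPINB4 are near-identical copies whose reads are uncertain in origin, and they were at 0.535 and 1.94 CPM there.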
